A study of Mus musculus with 8 samples.

Results

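Very long protein-coding genes, defined as those that span at least 500 kb, and the ATAC-seq peaks that lie inside them were examined in amygdala neurons of mice. ATAC-seq uses a transposase, Tn5, that inserts sequencing adapters into open chromatin, and a peak is an interval where the deposited calls found more insertions than the local background. A peak was a member when its summit, the position of its strongest signal, lay inside one of 215 such genes among the 20661 protein-coding genes of chromosomes 1 to 19 in the RefSeq table of GRCm38 (mm10). This rule selected 50263 of the 647290 peaks listed in the 8 libraries. The tested libraries, named sgNr2f2, came from 4 male C57BL/6J mice whose amygdala had received an adeno-associated virus (AAV) with a guide against Nr2f2, a nuclear receptor gene. The sgRosa libraries came from 4 male C57BL/6J mice that had received the same kind of virus with a guide against Rosa26, a locus commonly used as a neutral target. Animals of both groups had more than 2 weeks for expression and then went through tube restraint (7 days), fear conditioning (1 day) and extinction (3 days), so no unstressed animals are among them. Neurons were enriched after papain digestion with a magnetic adult neuron isolation kit, and the labels give neither the age of the mice, nor the source of the nuclease, nor the share of neurons that carried a guide. The study asked whether Nr2f2 regulates chromatin accessibility in these cells.

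The longest genes of mammals code in large part for proteins of neurons: cell adhesion molecules of the synapse, receptors, ion channels and scaffolds. Almost all of their length is intron, which can hold enhancers, and transcribing such a gene takes a polymerase hours. Several of them lie at common fragile sites, where chromosomes break under replication stress. A length of 500 kb is a line drawn through a continuous distribution. Just inside it lay Dock1 (503 kb), with 24.9 ± 15.6 peaks per Mb, and Edil3 (502 kb), with 24.4 ± 10.7, and just outside it Dnm3 (496 kb), with 19.2 ± 6.64, and Lrrc7 (495 kb), with 17.4 ± 9.90 (SD over 8 libraries). The genes ran up to 2.27 Mb, the length of Ptprd, with a median of 0.735 Mb, and 55 were 1 Mb or longer.

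The start sites show how little of the listed signal lay at promoters of these genes. RefSeq promoter windows of GRCm38.p6, each 300 bases long with 250 of them upstream of the start, were at hand for 271 start sites of 169 of the 215 genes. Of these windows 246 overlapped no peak in any library, 21 overlapped a peak in 1 library and 4 in 2 libraries, and none in more. A peak in at least 1 library was found at 9.23% of these windows, against 13.5% of all 31396 windows of chromosomes 1 to 19. By library, 3, 2, 4 and 4 of the windows overlapped a peak in sgNr2f2 1 to 4, and 3, 7, 6 and 0 in sgRosa 1 to 4. The 250 upstream bases are shown for 3 genes whose window overlapped a peak in 2 libraries. Macrod2 encodes an ADP-ribose hydrolase, Syt1 the calcium sensor of synaptic vesicle release, and Fhit a hydrolase encoded at a common fragile site. Capitals mark the GC box GGGCGG, in either orientation, and would mark AGGTCA or its reverse TGACCT, the motif of many nuclear receptors including the NR2F family.
Macrod2, chr2:140395180-140395429, + strand: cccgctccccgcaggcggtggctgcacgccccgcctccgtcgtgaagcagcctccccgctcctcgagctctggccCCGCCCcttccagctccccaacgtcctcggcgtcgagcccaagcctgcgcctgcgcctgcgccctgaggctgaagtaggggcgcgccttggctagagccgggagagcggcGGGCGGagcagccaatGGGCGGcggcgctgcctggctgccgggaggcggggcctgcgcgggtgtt
Syt1, chr10:109010976-109011225, − strand: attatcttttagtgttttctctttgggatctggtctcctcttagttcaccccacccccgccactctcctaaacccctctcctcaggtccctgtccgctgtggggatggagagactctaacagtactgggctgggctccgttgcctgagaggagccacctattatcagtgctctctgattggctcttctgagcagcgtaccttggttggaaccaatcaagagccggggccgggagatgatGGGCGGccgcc
Fhit, chr14:11162036-11162285, − strand: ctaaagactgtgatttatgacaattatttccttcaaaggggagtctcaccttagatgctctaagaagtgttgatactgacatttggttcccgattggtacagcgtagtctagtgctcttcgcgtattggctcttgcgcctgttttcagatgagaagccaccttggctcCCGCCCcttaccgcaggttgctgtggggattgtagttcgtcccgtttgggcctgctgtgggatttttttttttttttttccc
The Macrod2 stretch held 30 CpG dinucleotides and 3 GC boxes, the Syt1 stretch 8 CpG and 1 GC box, and the Fhit stretch 9 CpG and 1 GC box. None of these stretches held AGGTCA on either strand, which says only that these letters are absent there. In the 250 upstream bases, counting both strands, AGGTCA was found at 11.4% of the start sites of very long genes and 14.0% of all start sites, and GGGCGG at 37.3% of those of very long genes and 32.7% of all. The peaks behind these examples were weak by the authors' own values. At Macrod2 they had a −log10 p of 4.08 in sgNr2f2 4 and 4.57 in sgRosa 3. At Syt1 they had 2.84 in sgNr2f2 3 and 2.86 in sgRosa 1, and the sgNr2f2 3 peak, at chr10:109010701-109010927, lay downstream of the start and overlapped the window but not the printed bases. At Fhit they had 3.9 in sgRosa 1 and 4.37 in sgRosa 3.

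The libraries differed in how many peaks they listed, from 53799 in sgNr2f2 4 to 142509 in sgRosa 4, which stood apart. Sequencing depth is unknown, and the number of listed peaks follows the calling as well as the biology. Counts between libraries were therefore taken from lists of equal length, the strongest 53799 peaks of each library by the authors' −log10 p. Between 4.80% and 18.6% of a full list had a q under 0.05, so most listed peaks were weak. Neuronal identity was poorly visible: a summit fell within 1 kb of either gene end, in any library, for 5 of 10 neuron markers (Rbfox3, Syt1, Tubb3, Map2, Gad1). For Snap25, Slc17a7, Slc17a6, Slc32a1 and Gad2 there was none. A summit was likewise found for 3 of 6 astrocyte, 3 of 6 microglia, 2 of 5 endothelial and 1 of 6 oligodendrocyte markers. No library had one at more than 2 genes of a type. Of all protein-coding genes 54.4% had such a peak in at least 1 library, so 5 of 10 neuron markers is no more than the general share. These counts do not settle the labelled cell type, and peaks in or near Nr2f2 would not measure the knockdown.

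Peaks were about as dense inside very long genes as in the surrounding genome. The genes cover 179.6 Mb, 7.48% of the 2399 Mb spanned by peaks, and they held 7.30%, 8.26%, 7.02% and 7.51% of the equal-length list in sgNr2f2 1 to 4, and 8.43%, 7.95%, 7.35% and 8.10% in sgRosa 1 to 4. All 8 shares lay within 1 percentage point of the genes' share of the length. Per Mb of gene this was 21.9, 24.7, 21.0 and 22.5 peaks in sgNr2f2 1 to 4, and 25.2, 23.8, 22.0 and 24.3 in sgRosa 1 to 4. Over the 8 libraries the density averaged 23.2 ± 1.54 peaks per Mb inside the genes and 22.4 ± 0.996 in the flanking 1 Mb on either side (SD, n = 8). The ratio of 1.03 was above 1 in 6 of 8 libraries, and the log2 ratio of 0.05 ± 0.05 gave a two-sided exact sign-flip permutation p of 0.0469. After Benjamini-Hochberg adjustment over the 10 comparisons of this kind the p was 0.0911. It also missed 0.05 in the full lists (p = 0.0547) and in lists cut to the strongest 26899 peaks (p = 0.0859, exact sign-flip permutation). Against flank bases outside protein-coding genes the log2 ratio was larger, at 0.09 (exact sign-flip p = 0.00781).

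Set against the rest of the genome, the picture depended on the reference. Sequence outside all protein-coding genes held 21.3 ± 1.16 peaks per Mb, less than very long genes in 8 of 8 libraries, by a ratio of 1.09 (exact sign-flip p = 0.00781, the smallest that 8 libraries allow, adjusted p = 0.0260). All other protein-coding genes held 24.2 ± 2.35 peaks per Mb. Very long genes were denser than these in 4 libraries and sparser in 4, with a mean ratio of 0.960 (exact sign-flip p = 0.469). That ratio ran from 0.752 in sgNr2f2 3 to 1.24 in sgRosa 1, a wider range than the ratio to the flanks, which ran from 0.968 in sgNr2f2 1 to 1.07 in sgNr2f2 2.

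**Figure D1:**
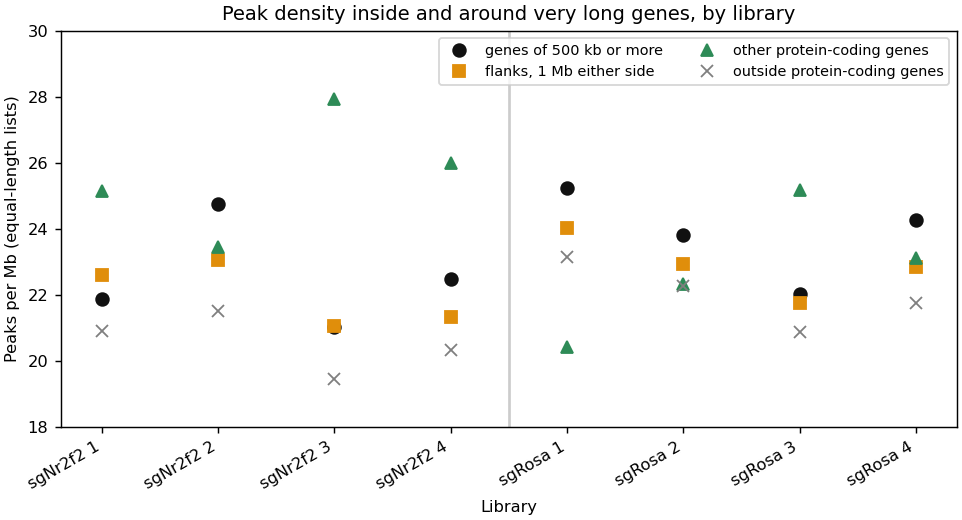
Peaks per Mb in the equal-length list of each library, with sgNr2f2 libraries on the left and sgRosa libraries on the right, for very long genes, their flanks, other protein-coding genes and sequence outside protein-coding genes (1 point per library and kind of sequence). The axis starts at 18; very long genes and their flanks stay close together, while other genes range from 20.4 in sgRosa 1 to 27.9 in sgNr2f2 3.

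Averaged over the 8 libraries, density was lower in longer genes, though not in every library. Its spread between libraries was smaller up to a length of 500 kb. Genes under 10 kb held 27.3 ± 4.66 peaks per Mb, genes of 10 to 50 kb 25 ± 3.46, and genes of 50 to 100 kb 24.0 ± 2.89 (SD, n = 8 libraries). Genes of 200 to 500 kb held 23.5 ± 1.11, the 160 genes of 500 kb to 1 Mb 23.4 ± 1.36, and the 55 genes of 1 Mb or more 22.9 ± 2.12. The class means are a description, and the step at 500 kb was not larger than the spread. In the longest class sgNr2f2 1 to 4 had 21.0, 24.4, 18.8 and 22.7 peaks per Mb, and sgRosa 1 to 4 had 25.5, 23.9, 22.8 and 24.0. There sgNr2f2 1, 3 and 4 lay below every sgRosa library and sgNr2f2 2 lay among them.

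**Figure D2:**
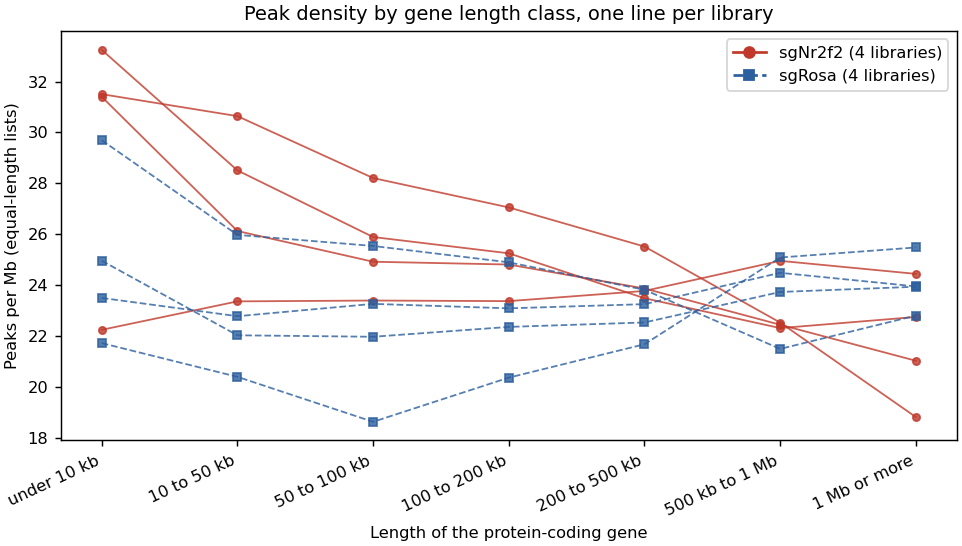
Peaks per Mb of gene by length class of the protein-coding gene, 1 line per library, solid red for sgNr2f2 and dashed blue for sgRosa. Libraries spread from 21.7 to 33.2 peaks per Mb for genes under 10 kb and from 18.8 to 25.5 for genes of 1 Mb or more, and lines cross between 200 kb and 1 Mb.

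Within the genes, no concentration of peaks at start sites or gene ends passed a test. Strand was known for 169 genes. Windows within 1 kb of an annotated start site held 25.7 ± 10.7 peaks per Mb and the gene body more than 1 kb from any end or start 23.2 ± 1.56 (SD, n = 8), with the windows denser in 5 of 8 libraries (exact sign-flip p = 0.961 on the log2 ratio, whose mean over libraries corresponds to a ratio of 1.01). These windows hold few peaks, between 4 and 22 per library, so a moderate enrichment was not detectable. The 5′ end held 28.1 ± 12.7 peaks per Mb and the 3′ end 17.8 ± 7.79, and neither difference from the body passed the test (exact sign-flip p = 0.555 for the 5′ and 0.117 for the 3′ end). In steps of 5 kb from 50 kb before to 50 kb after the 5′ end, the first 5 kb of the gene had the highest mean of the 20 steps, 28.8 ± 5.93 peaks per Mb, and lay above the gene body in 6 of 8 libraries. The steps at 15 to 20 and 20 to 25 kb held 19.7 ± 4.81 and 20.6 ± 3.63. The step at 30 to 35 kb held 27.7 ± 4.81 and lay above the gene body in 7 of 8 libraries. High steps were thus not confined to the start. The steps named here were picked out after their values were seen and were not tested. Cut into 5 equal segments from the 5′ to the 3′ end, the genes held means between 22.9 and 23.6 peaks per Mb. The segment at the 3′ end varied least between libraries, from 23.2 to 24.1, and the third most, from 20.1 to 27.4.

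The strongest peaks were rarer inside very long genes. Of the strongest 300 peaks of a library, 4.00%, 4.67%, 4.67% and 5.33% lay in these genes in sgNr2f2 1 to 4, and 4.00%, 4.67%, 3.67% and 5% in sgRosa 1 to 4. All 8 values were under the 7.48% that the genes take of the length. The mean was 4.5 ± 0.563% for ranks 1 to 300, 7.11 ± 1.52% for ranks 301 to 1000, 7.4 ± 0.722% for ranks 1001 to 3000, and 7.75 ± 0.606% for ranks 30001 to 53799 (SD, n = 8). The same strong positions recur across libraries, so the 8 values for the first 300 ranks are not independent. Medians of typical peaks were nearly the same inside and elsewhere. The median fold enrichment, the authors' value for each peak, averaged 2.64 inside these genes and 2.63 elsewhere (exact sign-flip p = 1, 1 library higher, 1 lower and the rest tied), and the median −log10 p 3.54 inside and 3.53 elsewhere (p = 0.5, exact). Median width averaged 166.6 bp inside and 167.1 bp elsewhere (exact p = 0.5). Medians were tied in several libraries, so none of these tests of medians could reach a p under 0.05. A second summit of the same list lay within 1 kb for 5.71 ± 1.49% of peaks inside and 6.26 ± 1.14% elsewhere, lower in 7 of 8 libraries (exact sign-flip p = 0.0391, adjusted p = 0.0911).

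Peaks of very long genes were also shared less often between libraries. In sgNr2f2 1 to 4, 9.83%, 8.19%, 10.4% and 9.56% of them overlapped a peak of another library by at least 1 bp, and in sgRosa 1 to 4, 9.59%, 8.63%, 9.73% and 8.10%. The mean of 9.26 ± 0.842% stood against 10.8 ± 0.732% for peaks elsewhere (SD, n = 8), lower in 8 of 8 libraries (exact sign-flip p = 0.00781, adjusted p = 0.0260). Against the flanks, a comparison added after the data were seen, where 10.2 ± 0.857% were shared, the share was again lower in 8 of 8 (exact sign-flip p = 0.00781, adjusted p = 0.0260). An overlap counts for every library it joins, so the 8 values are not independent, as the sign-flip test takes them to be. Merging overlapping peaks of the 8 lists gave 405093 regions, 31694 of them (7.82%) with their strongest summit inside a very long gene. The share was 7.87% among regions of 1 library, 7.28% among those of 2, 5.03% among those of 3, and 2.77% (18 of 649) among those of 4 or more. Of the 223 regions of all 8 libraries the share was 2.69%.

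**Figure D3:**
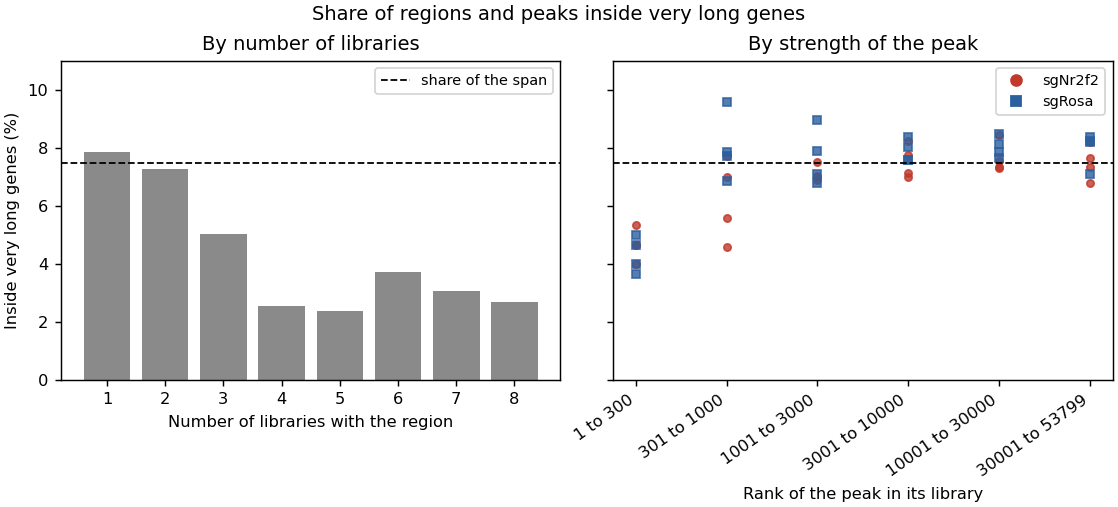
Left, percent of merged regions inside very long genes by the number of libraries that hold the region; right, percent of peaks inside very long genes by rank of the peak in its library, 1 point per library (red circles sgNr2f2, blue squares sgRosa), with a dashed line at 7.48%, the genes' share of the length. The bars drop from 7.87% for 1 library to 2.69% for 8, and the points for ranks 1 to 300 all lie below the line.

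Regions of very long genes were present in all 8 lists at 6 places, of which 5 are described. One, chr12:67059095-67059985, lay in Mdga2, a membrane-anchored protein that binds neuroligins, with a −log10 p of 69.1, 79.6, 96.5 and 77.6 in sgNr2f2 1 to 4, and 92.1, 89.9, 83.3 and 61.0 in sgRosa 1 to 4. Dock2, a Rac activator known from blood cells, held both chr11:34681611-34682657 and chr11:34544223-34545042, at ranks 58 to 108 and 80 to 144 by −log10 p within the libraries. The region in Fgf12, an intracellular modulator of sodium channels, lay at chr16:28715463-28715625 and ranked between 92 and 3361. Another lay in Dcc, the netrin receptor, at ranks 112 to 271. By rank within the libraries, the groups overlapped at the regions of Mdga2, Dock2 and Dcc. The Fgf12 region ranked 334, 3361, 191 and 219 in sgNr2f2 1 to 4, and 104, 155, 124 and 92 in sgRosa 1 to 4. These ranks did not overlap, and the difference was not tested. The −log10 p values did overlap, with 15.4 in sgNr2f2 3 and 13.1 in sgRosa 2. The share of all regions of 8 libraries whose ranks separate the groups in this way is not given here. No list of repeats or of artefact-prone sites was applied, and whether these intervals are accessible in neurons was not tested. No region of a very long gene was present in all 4 libraries of one group and none of the other: 2 regions were in 3 sgNr2f2 and 0 sgRosa libraries, of 89 such regions anywhere, and 4 were in 0 sgNr2f2 and 3 sgRosa libraries, of 79 anywhere. These are 2.25% and 5.06%, beside the 5.03% among all regions of 3 libraries.

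Gene by gene, mean density ranged from 12.8 to 35.6 peaks per Mb with a median of 23.4, 18.3 at the 10th and 27.6 at the 90th percentile. Every gene held at least 1 peak in each library. The densest was Ptprn2, a phosphatase-like protein of secretory granules (chr12:116485695-117278167). It had 24.0, 37.9, 30.3 and 46.7 peaks per Mb in sgNr2f2 1 to 4, and 42.9, 48, 32.8 and 22.7 in sgRosa 1 to 4, a mean of 35.6 ± 9.79 (SD, n = 8). Libraries of both groups were high and low, and its flank held 23.8 ± 2.72. Dlgap2, a scaffold of the postsynaptic density, followed with 35.5 ± 11.6 peaks per Mb, Dpp6, an auxiliary subunit of Kv4 potassium channels, with 33.6 ± 14.1, Csmd1, a complement regulator, with 33.0 ± 9.01, and Syt1 with 32.4 ± 15.0. Rabgap1l, a Rab GTPase-activating protein (chr1:160219174-160793476), was the sparsest. It had 13.9, 26.1, 8.71 and 8.71 peaks per Mb in sgNr2f2 1 to 4, and 3.48, 13.9, 17.4 and 10.4 in sgRosa 1 to 4, a mean of 12.8 ± 6.83. Adgrl3, a latrophilin adhesion receptor, had 13.8 ± 6.56, Zbtb20, a zinc finger repressor, 15.5 ± 9.23, Unc13c, a vesicle priming factor, 16.1 ± 4.95, and Grm5, a metabotropic glutamate receptor, 16.1 ± 4.16. The ranking carried little from one library to the next. Across the 215 genes, Spearman's rho of gene density between libraries of one group lay between -0.07 and 0.33 with a median of 0.08, and between libraries of different groups between -0.19 and 0.18 with a median of 0.03 (across genes, which are not independent replicates).

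Density inside a gene followed that of its surroundings more than that of the same gene in another library. Within a library, Spearman's rho between gene and flank over the 215 genes lay between 0.34 and 0.58, where both share the library and the base composition of the region. A gene's ratio to its flank was taken per library, with 0.5 peak added to each number, and averaged on the log2 scale, so it can differ from the ratio of the mean densities. By this ratio, 113 genes were denser than their flank and 102 sparser, with a median log2 ratio of 0.02 that equalled the 0.02 over all 2312 genes of 100 kb or more that were tested. With limma and Benjamini-Hochberg adjustment 0 of the 215 genes were called at an adjusted p under 0.05, against 1.95% of all genes tested, 1.51% called denser and 0.433% sparser. At an unadjusted p under 0.05 there were 11 of 215, against 13.1% of all genes tested. These were 9 denser genes, against 8.65% of all, and 2 sparser, against 4.41%. The highest ratio was that of Sorcs1, a sorting receptor of neurons (chr19:50143295-50679129). It had 26.1, 35.5, 11.2 and 26.1 peaks per Mb in sgNr2f2 1 to 4, and 42.9, 16.8, 29.9 and 29.9 in sgRosa 1 to 4, against 15.9 ± 5.46 in its flank, a ratio of 1.72 and above 1 in 8 of 8 libraries (log2 0.78, SE 0.20, limma adjusted p = 0.0643). The adjusted p was 0.0332 in lists cut to the strongest 26899 peaks and 0.0497 without sgRosa 4. Mdga2 had a ratio of 1.53 (adjusted p = 0.201, limma), Syt1 1.53 in 8 of 8 libraries (0.118), Ptprn2 1.47 in 8 of 8 (0.176) and Dpp6 1.44 (0.351). Ptprn2 was called in the full lists (log2 0.67, limma adjusted p = 0.0414).

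At the other end stood Ryr2, the calcium release channel of the endoplasmic reticulum, with 23.0 ± 12.5 peaks per Mb against 33.4 ± 8.30 in its flank, a ratio of 0.603 (log2 -0.73, SE 0.35, limma adjusted p = 0.385). Its libraries ran from 3.61 in sgRosa 3 to 36.1 in sgNr2f2 3. Rabgap1l followed with a ratio of 0.611, Lrba, a vesicle trafficking protein, with 0.638, Pde1c, a cyclic nucleotide phosphodiesterase, with 0.645, and Cpq, a carboxypeptidase, with 0.647. Of these only Lrba was below its flank in 8 of 8 libraries. Cpq held 31 peaks in sgRosa 1 and between 1 and 9 in each other library, and Pde1c held 1 peak in sgNr2f2 4 and between 8 and 19 in the others.

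**Figure D4:**
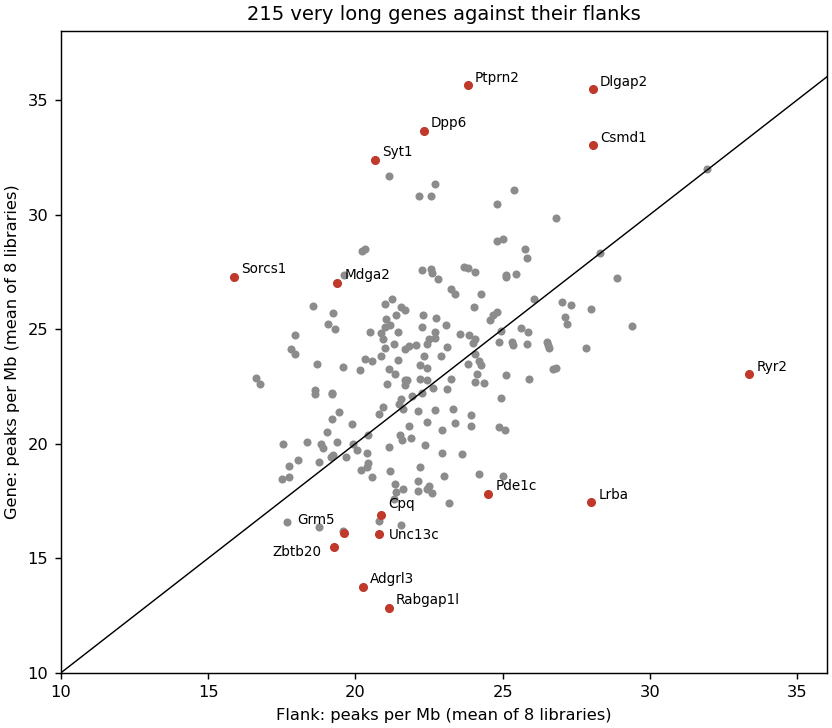
Mean peaks per Mb inside each of the 215 very long genes (vertical axis) against mean peaks per Mb in its flank of 1 Mb on either side (horizontal axis), over the 8 equal-length lists; the line marks equal density and red points the named densest, sparsest, highest-ratio and lowest-ratio genes. Genes lie on both sides of the line, with Ptprn2 at the top at 35.6 and Rabgap1l at the bottom at 12.8 peaks per Mb; ratios of the plotted means differ from the mean log2 ratio over libraries, by which Sorcs1 was highest and Ryr2 lowest.

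Over all very long genes combined, no difference between the groups passed an exact test. Their share of the equal-length list averaged 7.52 ± 0.533% in sgNr2f2 and 7.96 ± 0.450% in sgRosa (n = 4 each, ± SD), a difference of -0.437 percentage points (two-sided exact permutation p = 0.257, adjusted p = 0.386 over 9 comparisons of this kind). It was -0.269 without sgNr2f2 3 and -0.684 without sgNr2f2 2, and -0.178 for genes of 300 kb or more. The density was 22.5 ± 1.60 peaks per Mb in sgNr2f2 and 23.8 ± 1.35 in sgRosa (p = 0.257, exact), and in the flanks 22.0 ± 0.970 in sgNr2f2 and 22.9 ± 0.922 in sgRosa (p = 0.200, exact). The ratio of gene to flank averaged 1.02 ± 0.0491 in sgNr2f2 and 1.04 ± 0.0218 in sgRosa (p = 0.571, exact). Among peaks with q under 0.05, 7.13 ± 0.370% were inside very long genes in sgNr2f2 and 7.66 ± 0.777% in sgRosa (p = 0.314, exact), a difference of -0.526 that was -0.210 without sgRosa 1 and -0.839 without sgRosa 3. Other protein-coding genes held 25.6 ± 1.87 peaks per Mb in sgNr2f2 and 22.8 ± 1.97 in sgRosa (p = 0.0857, exact). Sequence outside protein-coding genes held 20.6 ± 0.885 in sgNr2f2 and 22.0 ± 0.957 in sgRosa (p = 0.0857, exact). All lists have the same length, so a higher density in one kind of sequence goes with a lower density elsewhere. The ratio of very long to other genes was 0.870, 1.06, 0.752 and 0.865 in sgNr2f2 1 to 4, and 1.24, 1.07, 0.875 and 1.05 in sgRosa 1 to 4. The groups overlapped (exact p = 0.114, adjusted p = 0.343). With 4 libraries against 4 the smallest p is 0.0286.

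Gene by gene, none of the 215 passed the test between groups. By limma with Benjamini-Hochberg adjustment over all 3037 genes tested, 0 very long genes were called, against 0% of all genes higher and 0% lower, and the smallest adjusted p among the members was 0.568. At an unadjusted p under 0.05 there were 6 of the 215 with more and 17 with fewer peaks in sgNr2f2. Of all genes tested 4.38% were higher, 2.37% lower and 6.75% either. Genes tested needed a mean of only 2 peaks. Their median variance over mean within a group was 1.25, against 2.22 for very long genes. All genes tested are therefore not a like reference, here or for the counts that follow. An exact permutation test per gene put 9 of the 215 at an unadjusted p under 0.05, 2 higher and 7 lower, against 75 of the 3037. With 4 libraries against 4 this test falls under 0.05 only where the groups do not overlap. These are therefore the same genes as the non-overlapping ones below, and not a second result. Mean peak numbers were higher in sgNr2f2 for 95 genes, lower for 116 and equal for 4. The median log2 ratio was -0.02 over the members and 0.11 over all genes tested. Values of all 4 libraries of one group lay beyond all 4 of the other in 2 genes that were higher in sgNr2f2, against 1.71% of all genes, and in 7 that were lower, against 0.757%. The 2 were Rbfox1 and Trpm3, and the 7 were Erbb4, Cdh12, Sgcd, Grm8, Gpc5, Cntn5 (a contactin) and Nav3 (a neuron navigator). Neighbouring sequence moved with the genes: over the 215, the log2 ratio of the groups in the gene and in its flank had a Spearman's rho of 0.55, as a description across genes of the same 8 libraries.

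The genes with the smallest p and fewer peaks in sgNr2f2 were led by Erbb4, a receptor for neuregulins (chr1:68031884-69108576). It held 7, 24, 9 and 19 peaks in sgNr2f2 1 to 4, and 37, 34, 34 and 29 in sgRosa 1 to 4. The groups did not overlap, and the log2 ratio was -1.28 (SE 0.36, limma adjusted p = 0.568). Its flank held 17.8 peaks per Mb in sgNr2f2 and 27.5 in sgRosa. Cntnap2, a neurexin-family adhesion protein (chr6:45060061-47301393), held 48, 54, 32 and 33 peaks in sgNr2f2 1 to 4, and 109, 75, 48 and 62 in sgRosa 1 to 4, with one library of each group at 48 (log2 -0.77, SE 0.26, adjusted p = 0.568 in limma). Cdh18 and Cdh12 are neighbouring type II cadherins of chromosome 15 whose flanks share sequence. Cdh18 held 14, 9, 9 and 21 peaks in sgNr2f2 1 to 4, and 40, 25, 20 and 26 in sgRosa 1 to 4. Cdh12 held 18, 22, 16 and 11 in sgNr2f2 1 to 4, and 48, 31, 29 and 25 in sgRosa 1 to 4. The groups overlapped for Cdh18 and not for Cdh12, whose flank held 13.5 peaks per Mb in sgNr2f2 and 29.5 in sgRosa, beside 14.6 in sgNr2f2 and 28.9 in sgRosa in the gene itself. Sgcd, a subunit of the dystrophin complex, held 14, 15, 13 and 19 peaks in sgNr2f2 1 to 4, and 36, 25, 27 and 32 in sgRosa 1 to 4. Its flank was nearly level, at 21.5 peaks per Mb in sgNr2f2 and 23.0 in sgRosa. Grm8, a presynaptic metabotropic glutamate receptor, held 19, 14, 6 and 20 peaks in sgNr2f2 1 to 4, and 33, 25, 30 and 24 in sgRosa 1 to 4. Neither Sgcd nor Grm8 passed (limma adjusted p = 0.608 for both), and neither of their pairs of groups overlapped.

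Among genes with more peaks in sgNr2f2, Nav2, a cytoskeletal neuron navigator protein (chr7:48959063-49610090), held 30, 23, 17 and 44 peaks in sgNr2f2 1 to 4, and 5, 25, 11 and 10 in sgRosa 1 to 4 (log2 1.22, SE 0.39, limma adjusted p = 0.568). Ptprm, an adhesion phosphatase, held 28, 16, 26 and 23 in sgNr2f2 1 to 4, and 4, 17, 15 and 7 in sgRosa 1 to 4 (log2 1.20, SE 0.40, limma adjusted p = 0.568). In both genes 1 sgRosa library reached into the range of sgNr2f2. Rbfox1, a splicing regulator of neurons (chr16:5884793-7412480), held 45, 55, 50 and 39 peaks in sgNr2f2 1 to 4, and 22, 33, 31 and 28 in sgRosa 1 to 4 (log2 0.71, SE 0.29, limma adjusted p = 0.609). Its groups did not overlap, and its flank held 29.4 peaks per Mb in sgNr2f2 and 17.8 in sgRosa. Camta1, a calmodulin-binding transcription factor, held 32, 14, 31 and 32 in sgNr2f2 1 to 4, and 13, 13, 19 and 14 in sgRosa 1 to 4, so that only sgNr2f2 2 lay within the sgRosa range, and its flank held 27.0 peaks per Mb in both groups. Erc2, a scaffold of the presynaptic active zone, held 22 to 26 peaks in sgNr2f2 libraries and 6 to 33 in sgRosa libraries. Nkain3, a membrane protein that interacts with the sodium pump, held 8 to 28 in sgNr2f2 libraries and 1 to 21 in sgRosa libraries. The replicates of one group varied more than counting alone would give: the variance of peaks per gene over its mean within a group had a median of 2.22 over very long genes and 1.25 over all genes tested.

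**Figure D5:**
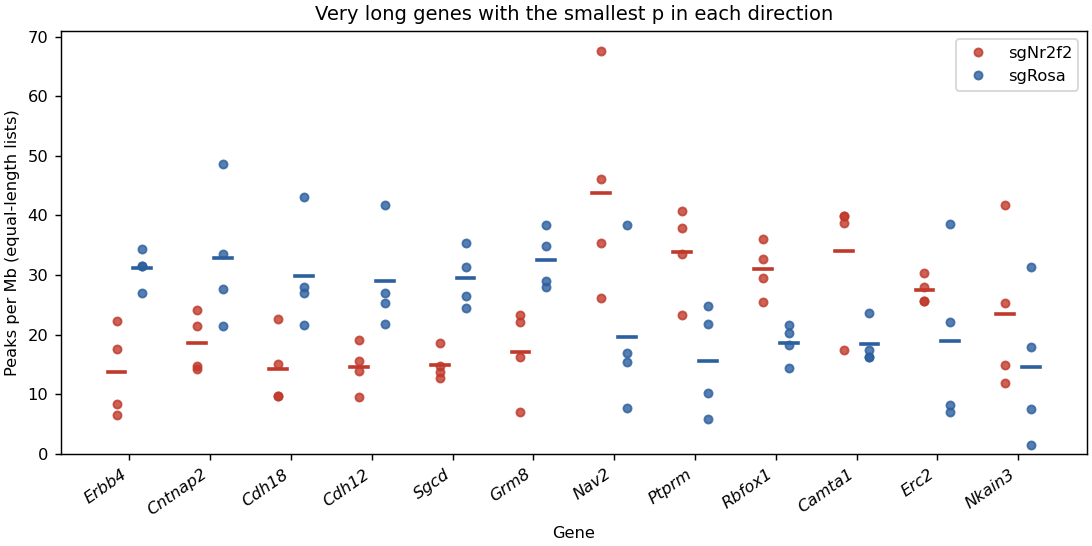
Peaks per Mb in the very long genes with the smallest limma p in each direction between groups, the 6 lower in sgNr2f2 on the left and the 6 higher on the right; points are libraries (red sgNr2f2, blue sgRosa, n = 4 each) and bars are group means. The points of the 2 groups do not overlap for Erbb4, Cdh12, Sgcd, Grm8 and Rbfox1, and no gene passed the adjustment over all 3037 genes.

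Gene families were described by their counts, beside a median log2 ratio of 0.11 over all genes tested, 42.0% of which had a ratio below 0, and no member of any family was called. Of 33 adhesion molecules and synapse organisers, 12 had more and 21 fewer peaks in sgNr2f2, with a median log2 ratio of -0.15. Together they held 21.2 ± 1.97 peaks per Mb in sgNr2f2 and 24.9 ± 2.88 in sgRosa (n = 4 each, ± SD). Negr1, an adhesion protein of axons, had 24.2 ± 7.04 peaks per Mb in sgNr2f2 and 36.8 ± 6.87 in sgRosa. Of 7 neurotransmitter receptors 2 had more and 5 fewer (median -0.13). Grid1, a delta glutamate receptor, had 31.8 ± 10.2 peaks per Mb in sgNr2f2 and 21.3 ± 3.76 in sgRosa, and Grm7, a metabotropic glutamate receptor, 20.9 ± 9.39 in sgNr2f2 and 27.9 ± 17.0 in sgRosa. Gabrg3, a GABA-A receptor subunit, had 27.2 ± 13.7 in sgNr2f2 and 23.9 ± 14.8 in sgRosa, and its direction turned in the full lists. Of 16 axon guidance and growth factor genes 8 had more and 8 fewer (median -0.01). Gpc5, a glypican, had 15.5 ± 6.43 in sgNr2f2 and 24.4 ± 0.987 in sgRosa with no overlap, Astn2, a protein of neuronal migration, 18.1 ± 2.33 in sgNr2f2 and 26.4 ± 9.93 in sgRosa, and Slit3, a repellent guidance cue, 31.5 ± 13.4 in sgNr2f2 and 23.4 ± 5.09 in sgRosa.

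Of 14 ion channels and their subunits, 9 had more and 5 fewer peaks in sgNr2f2, with a median log2 ratio of 0.17, beside 0.11 over all genes tested. Together they held 25.3 ± 1.86 peaks per Mb in sgNr2f2 and 21.5 ± 1.59 in sgRosa. The other pooled values, in sgNr2f2 and sgRosa, were 20.9 and 23.7 for neurotransmitter receptors and 21.7 and 24.2 for axon guidance genes. They were 26.4 and 24.6 for receptor tyrosine phosphatases and 23.1 and 23.0 for scaffold genes. For transcription and RNA-binding factors they were 23.0 and 22.5, and for fragile-site or broadly expressed genes 22.3 and 23.8. The adhesion and ion channel families thus differed most, and no pooled difference was tested. Trpm3, a cation channel, had 26, 22, 30 and 22 peaks in sgNr2f2 1 to 4, and 17, 12, 14 and 19 in sgRosa 1 to 4, without overlap (log2 0.66, SE 0.35, limma adjusted p = 0.729). Cacna2d3, a calcium channel subunit, had 31.5 ± 12.1 peaks per Mb in sgNr2f2 and 20.5 ± 7.16 in sgRosa, and Dpp6 38.5 ± 18.5 in sgNr2f2 and 28.8 ± 7.99 in sgRosa. Of 6 receptor tyrosine phosphatases 4 had more and 2 fewer (median 0.35). Ptprt had 30.7 ± 12.8 in sgNr2f2 and 21.1 ± 6.84 in sgRosa, Ptprg 27.2 ± 9.59 in sgNr2f2 and 21.4 ± 7.99 in sgRosa, and Ptprd 19.8 ± 3.82 in sgNr2f2 and 27.5 ± 3.83 in sgRosa. Of 22 scaffold, exocytosis and second messenger genes 12 had more and 10 fewer (median 0.02). Syt1 had 20.9 ± 6.03 in sgNr2f2 and 43.8 ± 12 in sgRosa, Dgkb, a diacylglycerol kinase, 13.6 ± 5.66 in sgNr2f2 and 25.5 ± 5.77 in sgRosa, Dlgap2 40.6 ± 13.7 in sgNr2f2 and 30.4 ± 7.77 in sgRosa, and Plcb1, a phospholipase, 27.6 ± 11.3 in sgNr2f2 and 18.5 ± 10.1 in sgRosa. Of 18 transcription and RNA-binding factors 9 had more and 9 fewer (median 0.02), among them Foxp2, a forkhead factor, with 13.4 ± 9.95 in sgNr2f2 and 24.5 ± 12.8 in sgRosa (log2 -0.97, and -0.39 without sgNr2f2 4), and Ralyl, an RNA-binding protein, with 22.2 ± 8.32 in sgNr2f2 and 33.1 ± 9.08 in sgRosa. Of 32 genes at fragile sites or of broad expression 15 had more and 17 fewer (median -0.04). Dpyd, an enzyme of pyrimidine breakdown, had 20.1 ± 13.9 in sgNr2f2 and 34.4 ± 17.1 in sgRosa, Vps13b, a lipid transfer protein, 14.7 ± 7.20 in sgNr2f2 and 28.1 ± 12 in sgRosa, Cpq 10.3 ± 6.46 in sgNr2f2 and 23.5 ± 24.9 in sgRosa, and Mgat4c, a glycosyltransferase, 12 ± 2.70 in sgNr2f2 and 23.9 ± 7.71 in sgRosa.

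No gene end separated the groups. A peak within 1 kb of either end was found in at least 1 library at 111 of the 215 genes, 51.6% of them, against 54.4% of all protein-coding genes, and in at least 5 libraries at none, against 0.276% of all genes. Between 14 and 26 very long genes per library had one in sgNr2f2, and between 10 and 32 in sgRosa. No gene had one in all 4 libraries of one group and at most 1 of the other, against 0.0194% of all genes for sgNr2f2 and 0.0581% for sgRosa. Ends of 10 genes were found in 3 libraries, the most for any, and 5 of these are named: those of Syt1, Tenm4 and Tmem132d, with 2 sgNr2f2 libraries and 1 sgRosa library, and of Adarb2 and Plcb1, with 1 sgNr2f2 library and 2 sgRosa libraries. Tenm4 is a teneurin adhesion protein, Adarb2 a member of the RNA-editing enzyme family, and Tmem132d a membrane protein.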

How the data were processed

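ATAC-seq libraries of 8 mice, 4 per group, were deposited as 1 peak list per library in mm10 coordinates, with the group and the replicate number read from each title. The design text counts 4 mice in either group, and a library was treated as 1 mouse. The submitters' processing notes name MACS2 2.2.9.1, HOMER 4.10, DiffBind 3.10.0, Picard, MultiQC 1.11, FastQC 0.11.9 and fastp 0.23.2. Aligner, duplicate handling, Tn5 shift and calling options are not given in the sources used here. Each deposited line gives the authors' fold enrichment, a ratio of signal over background, with −log10 values of p and q. Both belong to the single peak and are not comparable between libraries, so they served only to describe and order peaks within a list. The deposited integer score was not used.

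Where an interval on chromosomes 1 to 19 had several summits the strongest was kept, and 3465 lines were dropped. Densities, counts and sharing used lists of 53799 peaks, taken per library in order of −log10 p, then fold, then a fixed random order of ties. As many as 9212 kept peaks of a library were tied at the last value. Strength and q used the full lists. Genes, lengths and flanks came from a RefSeq gene table whose assembly, GRCm38.p6, is that of mm10, and strand from the matching promoter table. Flanks reached 1 Mb on either side without any bases of very long genes, and 5 very long genes overlap another one and share peaks with it. No genome sequence was used here.

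Library values were compared by two-sided exact permutation of the 70 group assignments or the 256 sign assignments. Peaks per gene were compared on the log2(peaks + 1) scale in R 4.3.3 by limma 3.58.1 with a trend, over 3037 genes with a mean of at least 2 peaks, and gene against flank with 0.5 peak added to each number, over 2312 genes of 100 kb or more. A log2 ratio on this scale understates the change of genes with few peaks. Each p-value sets a difference against the variation between these libraries. For single genes limma takes that variation in part from all genes tested. The limma comparison of peaks per gene between groups was tried on simulated peak numbers per gene with planted changes. The simulated numbers varied by counting alone, which is less than the replicates here varied. The other calculations were not tried on simulated data. Other calculations used scipy 1.17.1, pandas 2.3.3 and numpy 2.4.6 in Python 3.11.15, and plots matplotlib 3.10.9. Alternatives were the full lists, shorter lists, ranking by fold, other gene lengths, flanks, filters, pseudocounts and overlaps, each library left out, and the replicate number as a block.

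The members and the 8 gene lists were chosen with earlier results of these data known. Text names the 5 genes with the most and the fewest peaks per Mb, the 5 with the highest and the lowest ratio to the flank, the 6 per direction with the smallest limma p, the members of each list, at most 4, that differed most between groups, genes with a region in all 8 lists, up to 5 with an end peak in most libraries, and the genes next to 500 kb. Macrod2 and Fhit were named after their values were seen, for their promoter windows, as were Cntn5 and Nav3, for their groups that do not overlap. One region present in all 8 lists is not reported here.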

Additional observations from a re-analysis of the deposited data

Results flagged for a closer look

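Dixon's criterion was applied to 132 groups of 4 libraries, for values of whole libraries and for peaks in named genes. In 8 of these, all of them named genes, 1 library stood apart from the other 3, where chance gives about 1 in 20. Of the sgNr2f2 libraries, number 2 held 11 peaks in Cacna2d3 (29 to 32 in the other 3), 58 in Ptprd (40 to 41) and 14 in Camta1 (31 to 32). Number 4 held 78 peaks in Csmd1 (44 to 47), and number 1 held 9 in Lrba (6 in each of the other 3). Of the sgRosa libraries, number 1 held 12 peaks in Grid1 (17 to 18 in the other 3) and 31 in Cpq (4 to 7), and number 3 held 19 in Camta1 (13 to 14).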

How the results depend on the processing

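Both counts of called genes between groups stayed at 0 in every alternative run. The lower sharing of peaks in very long genes kept its direction and its side of 0.05 in all of them. The log2 ratio of gene to flank, 0.05, stayed positive in all of them. Its exact sign-flip p was over 0.05 in the full lists (log2 0.0428, p = 0.0547) and in lists of 26899 peaks (log2 0.0430, p = 0.0859). The same held for genes of 300 kb or more (log2 0.0418, exact p = 0.0547) and of 1 Mb or more (log2 0.0390, exact p = 0.305). The log2 ratio was larger with a flank of 500 kb (0.0573, exact p = 0.0156) and with flank bases outside protein-coding genes (0.0941, exact p = 0.00781). Leaving out 1 library gave 0.0369 to 0.0583 (exact p 0.0312 to 0.0938). The group difference in the gene to flank ratio (-0.0174, not past the threshold) turned to 5.3e-04 with a flank of 500 kb and to 0.0446 with flank bases outside protein-coding genes, and ran from -0.0339 to 0.00124 when 1 library was left out. The difference in median fold (0.0043) turned to -0.00618, and that in median −log10 p (0.00558) to -0.0139, in equal-length lists; leaving out 1 library gave -8.0e-04 to 0.00571 for the fold. One gene was called denser than its flank, where none was otherwise, in the full lists (Ptprn2), in lists of 26899 peaks and without sgRosa 4 (Sorcs1 in both). The log2 group ratio of Gabrg3 (0.23) turned to -0.0313 in the full lists and -0.0307 with these divided by their length, and lay between -0.0592 and 0.604 without 1 library. That of Cpq turned to 0.0185 in lists of 26899 peaks, and that of Grm7 lay between -0.632 and 0.0447 without 1 library. For 17 of 35 named genes, leaving out 1 library turned the log2 group ratio or moved it by over 1.5 times. Of these, Gabrg3 and Grm7 turned. The farthest of the other 15 were Nkain3, from 0.98 to 0.33 without sgRosa 1, Plcb1, from 0.63 to 0.20 without sgRosa 1, Ptprg, from 0.34 to 0.04 without sgRosa 1, Dpp6, from 0.28 to 0.06 without sgNr2f2 1, Cpq, from -0.85 to -0.28 without sgRosa 1, and Slit3, from 0.33 to 0.10 without sgNr2f2 3. The rest were Astn2, Cacna2d3, Dlgap2, Dpyd, Erc2, Foxp2, Gpc5, Grm8 and Ptprt. In none of these cases was the cause tested.

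Same-numbered libraries did not deviate together (correlations of -0.0178 to 0.0332), and nothing in the labels says that a number marks a shared day or litter. With the replicate number as a block, the group difference in the share inside very long genes was -0.437 percentage points (exact p = 0.250), in the gene to flank ratio -0.0174 (exact p = 0.625) and in the share among peaks with q under 0.05 -0.526 (exact p = 0.5), where 4 pairs allow no p under 0.125. The block called 0 genes between groups in either direction, and 1 of 4 sgNr2f2 libraries correlated best with its own number.

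Depth is unknown and most listed peaks are weak. On average 9.26% of the peaks in very long genes overlapped a peak of another library by at least 1 bp. The overlap that random placement would give was not worked out. Such low sharing limits what counts per gene can show.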
